A study of Arabidopsis thaliana with 8 samples.

Results

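Secondary wall, lignin and xylem cell death genes were followed in the RNA-seq profiles of Arabidopsis hypocotyls in which a strigolactone-resistant SMXL7 protein was activated with dexamethasone (DEX). The set comprised 51 genes of the 37573 rows of the count table. It was chosen by locus for the role of each gene, with earlier results of these data known. It held 5 genes of secondary wall cellulose, 9 of xylan, 14 regulators, 15 enzymes of the lignin pathway, 3 laccases and 5 genes of vessel cell death. All 51 loci were found in the table, and 49 of them were tested among 21289 genes with sufficient counts. All plants of both groups were Col-0 and carried the SMXL7pro:SMXL7d53-GR transgene, in which the *SMXL7* promoter drives the resistant protein fused to the glucocorticoid receptor (GR), a domain that keeps the fusion inactive until DEX binds it. The plants were 4 weeks old, grown on soil for 3 weeks in short days of 10 h light and for 1 week in long days of 16 h light. The DEX group was watered with 15 µM DEX and the mock group with the same volume of DMSO, its solvent, hypocotyls were harvested 5 h later, and 4 libraries were sequenced per group. Plants without the transgene were not part of the comparison, so an effect of DEX itself and an effect of the fusion protein cannot be told apart. The labels do not say whether libraries of a group came from separate plants or pools, so the p-values measure only the spread between these libraries.

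The hypocotyl thickens by a cambium that produces xylem inwards and phloem outwards. Xylem vessels and fibres lay a thick secondary wall inside the primary one, made of cellulose microfibrils spun by a dedicated cellulose synthase complex, of xylan that coats the cellulose, and of lignin that fills and waterproofs the wall. Lignin monomers are derived from phenylalanine by the phenylpropanoid enzymes and are linked in the wall by laccases and peroxidases, and vessels then die under the action of proteases and nucleases to become hollow. NAC proteins of the VND and NST/SND families switch the programme on, and MYB46 and MYB83 pass the signal on to further MYB factors and to the biosynthetic genes.

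Between 47976811 and 63996960 reads were counted per DEX library, and between 49220724 and 85953231 per mock library. The 51 genes took 0.398 to 0.411% of the counts in DEX libraries and 0.361 to 0.403% in mock libraries. Of the 49 tested members, *MYB42* was the one with a mean of less than 50 normalised counts. Mock library 2 held the lowest mock value of 27 of the 49 members (55.1%, against 25.6% of all tested genes). Mock library 3 held the highest of 32 (65.3%, against 29.2%). In bulk RNA, fewer cells of a type and less RNA per cell cannot be told apart. The transcript of *SMXL7* itself, to which reads of the fusion may add to those of the native gene, had 24589, 25084, 24524 and 24613 normalised counts in the DEX libraries, against 35736, 31063, 33699 and 33450 in the mock libraries. All DEX values were below all mock values, and the fitted log2 fold change was −0.44 ± 0.0465 (SE), at an adjusted p of 1.52e-05. Of 5 genes of the stomatal lineage, used as markers of leaf tissue, 3 were tested and all 3 fell, with summed levels of 6.49 to 9.20 TPM (counts scaled by transcript length and library total) in DEX libraries and 15.8 to 23.3 TPM in mock libraries and none of the 5 at 0. Of 5 photosynthesis genes 3 fell, with summed levels of 5141 to 6516 TPM in DEX libraries and 6879 to 9238 TPM in mock libraries. The part of such tissue in the results on wall genes was not tested. By the same test, 1 of 4 phloem markers rose (*APL*, log2 fold change 0.28) and 1 fell (*SUC2*, −0.26), 1 of 3 cambium markers fell (*WOX4*, −0.21) and 0 of 4 periderm markers passed. By that test 10.4% of all tested genes rose and 8.3% fell. None of these 11 marker genes reached 1.5-fold or was at 0. Their summed levels were 192 to 203 TPM in DEX and 202 to 222 TPM in mock libraries for phloem, 228 to 254 TPM in DEX and 235 to 249 TPM in mock libraries for cambium, and 48.3 to 64.7 TPM in DEX and 62.0 to 72.7 TPM in mock libraries for periderm.

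No member was induced or suppressed in DEX libraries. A gene was called induced or suppressed at an adjusted p under 0.01 (two-sided quasi-likelihood test of edgeR, adjusted over all 21289 genes by the Benjamini-Hochberg method), a mean of more than 50 normalised counts and a change of more than 1.5-fold. By the same rule 4.64% of all tested genes were induced and 1.81% suppressed. DESeq2 also called 0 members past these thresholds. Whatever the p-value, 0 of the 49 members differed by more than 1.5-fold in the edgeR fit, and the largest change was 1.326-fold. The 95% interval of the log2 fold change lay wholly inside a 1.5-fold change in either direction for 46 of the 49 members, against 77.7% of all tested genes. The other 3 were the regulators *SND3*, *MYB63* and *MYB52*. The median log2 fold change was 0.02 over the members, and −0.01 over all tested genes.

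Without the fold threshold, 7 members rose (14.3% of 49, against 10.4% of all tested genes) and 3 fell (6.12%, against 8.3% of all tested genes). Both shares were near those of all genes and say nothing particular of the members as a whole. With library totals alone as the scale, 1812 of all tested genes rose and 2642 fell, against 2204 and 1766 here, and 6 members rose and 4 fell. Those that rose were *PARVUS*, *KNAT7*, *PAL2*, *C3H1*, *CCoAOMT1*, *CAD4* and *CAD5*, and those that fell were *MYB63*, *PAL4* and *LAC11*. For 8 members all 4 DEX values lay above all 4 mock values, against 16.2% of all tested genes, and for 6 they lay below, against 15.1%. When each library was left out in turn, *KNAT7*, *PAL2* and *CAD5* passed the test in all 8 fits, *PARVUS* in 6, *C3H1* in 4, *CCoAOMT1* in 3, *MYB63* in 2, *PAL4* and *LAC11* in 1 each and *CAD4* in none. Without mock library 2, 4 members rose and 1 fell. *C3H1*, *CCoAOMT1*, *CAD4*, *MYB63*, *PAL4* and *LAC11* lost their calls in that fit and *SND3* passed the test. Without mock library 3, 9 members rose and 1 fell. *CAD4*, *PAL4* and *LAC11* lost their calls in that fit, and *4CL2*, *COMT1* and *XCP2* passed the test.

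**Figure D1:**
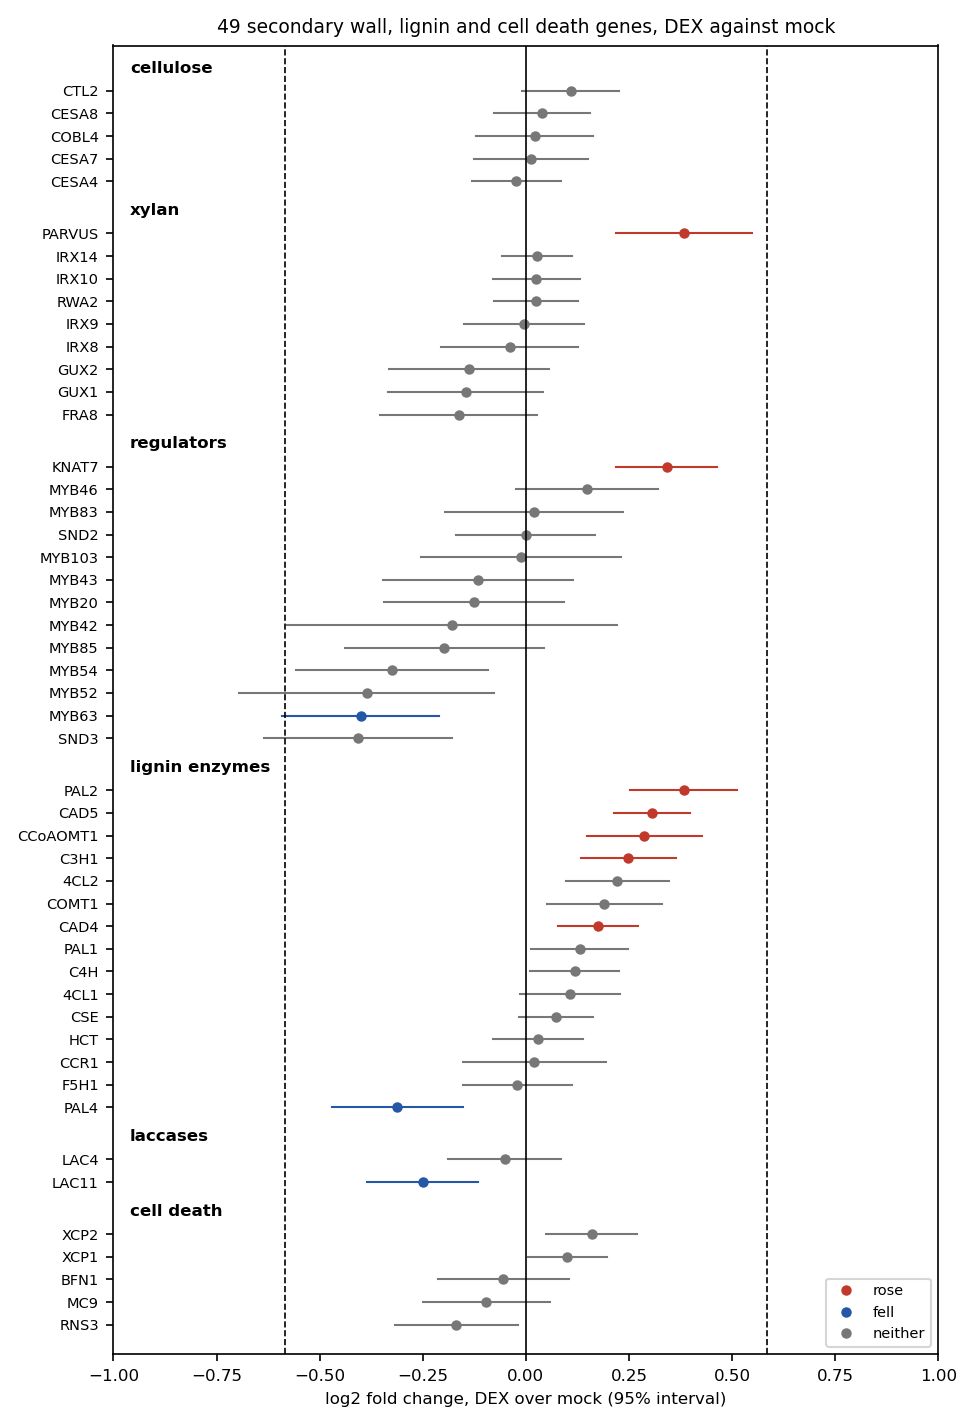
Log2 fold change of DEX over mock with its 95% interval for the 49 tested members, grouped by role and ordered by value within each group. Dashed lines mark a 1.5-fold change, which no point crosses. Red points rose, blue points fell and grey points passed neither test. Lignin enzymes lie mostly right of 0 and regulators mostly left of it.

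The secondary wall cellulose genes differed little between the groups. None of the 5 passed the test in either direction, against 10.4% of all tested genes that rose and 8.3% that fell. Their median log2 fold change was 0.02. All 5 had a 95% interval inside a 1.5-fold change, against 77.7% of all tested genes. *CESA4* (AT5G44030), *CESA7* (AT5G17420) and *CESA8* (AT4G18780) encode the catalytic subunits of the secondary wall cellulose synthase, all of which the complex needs. *CESA4* had 4286, 4438, 4412 and 4179.7 normalised counts in DEX libraries 1 to 4, against 4451, 3973, 4677 and 4485 in mock libraries 1 to 4. Its log2 fold change was the lowest of the class at −0.02 ± 0.0496 (SE). *CESA7* averaged 3926 ± 159 normalised counts in DEX and 3892 ± 379 in mock libraries (SD, n = 4 each), a log2 fold change of 0.01 ± 0.0635 (SE), and *CESA8* averaged 3346 ± 107 normalised counts in DEX and 3255 ± 257 in mock libraries (SD, n = 4 each), a log2 fold change of 0.04 ± 0.0538 (SE). For each of the 3 subunits all DEX values lay inside the range of the mock values. *COBL4* (AT5G15630), a COBRA-like protein needed for cellulose crystallinity, averaged 1754 ± 68 normalised counts in DEX and 1725 ± 172 in mock libraries (SD, n = 4 each). Normalised counts of *CTL2* were 3341, 3262, 3242 and 3504 in DEX libraries 1 to 4, and 3074, 2819.5, 3417 and 3057 in mock libraries 1 to 4. *CTL2* (AT3G16920), a chitinase-like protein linked to cellulose assembly in secondary walls, thus had the highest log2 fold change of the class, 0.11 ± 0.0541 (SE), and did not pass the test (adjusted p = 0.15). Mean levels per transcript length were 31.1 TPM in DEX and 32.7 TPM in mock libraries for *CESA4*. They were 31.3 TPM in DEX and 32.0 TPM in mock libraries for *CESA7*. For *CESA8* they were 27.1 TPM in DEX and 27.2 TPM in mock libraries. On this scale, which uses library totals, *CESA7* and *CESA8* were lower in DEX libraries, while their normalised counts were higher. Of the exon bases of *CESA8*, 16.8% are shared with neighbouring genes in RefSeq TAIR10.1, against 2.17% for *CESA4* and 1.94% for *CESA7*. Whether this lowered the TPM of *CESA8* was not tested.

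Among the xylan genes, 1 of 9 rose (11.1%, against 10.4% of all tested genes) and none fell (against 8.3%). The class median log2 fold change was −0.00. The gene that rose was *PARVUS* (AT1G19300), a glycosyltransferase needed for the short sequence at the reducing end of xylan. For *PARVUS*, the DEX libraries held 2331, 2802, 2689 and 2726 normalised counts and the mock libraries 1867, 1968, 2320.0 and 1929.6. All DEX values were above all mock values, although mock library 3 came close to DEX library 1. The log2 fold change was 0.38 ± 0.0750 (SE) with an adjusted p of 0.00254, and the call was lost without DEX library 2 or DEX library 4. *IRX8* (AT5G54690) and *FRA8* (AT2G28110), which act on the same reducing end sequence, had log2 fold changes of −0.04 ± 0.0766 (SE) and −0.16 ± 0.0880 (SE). *FRA8* reached 305, 296, 368 and 343 normalised counts in the DEX libraries, against 366, 328, 393 and 376 in the mock libraries. *FRA8* had the lowest value of the class, but the groups overlapped and the test was not passed (adjusted p = 0.182). The backbone genes *IRX9* (AT2G37090), *IRX10* (AT1G27440) and *IRX14* (AT4G36890) lay between −0.00 and 0.03. *GUX1* (AT3G18660) and *GUX2* (AT4G33330), which add glucuronic acid side chains, had log2 fold changes of −0.15 ± 0.0868 (SE) and −0.14 ± 0.0892 (SE), with overlapping groups. *RWA2* (AT3G06550), required for wall acetylation, was the most abundant of the class per length, with 92.1 TPM in DEX and 93.6 TPM in mock libraries. Its fitted log2 fold change was of the other sign, 0.02 ± 0.0471 (SE).

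The cellulose and xylan genes varied more between mock libraries than between DEX libraries. Over these 14 genes, the median coefficient of variation was 3.72% in DEX libraries and 8.84% in mock libraries, and the mock libraries were the wider group for 12 of the 14. Over all tested genes it was 6.02% in DEX libraries and 5.95% in mock libraries. Mock library 2 held the lowest mock value of 12 of the 14 genes, while it held the lowest of 25.6% of all tested genes. Mock library 3 held the highest mock value of 12 of the 14, against 29.2% of all tested genes. Without mock library 2 the log2 fold change of *CESA7* was −0.05, and without mock library 3 it was 0.05, so the sign depended on which of them was kept. Neither omission brought any gene of cellulose or xylan, other than *PARVUS*, past the test.

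**Figure D2:**
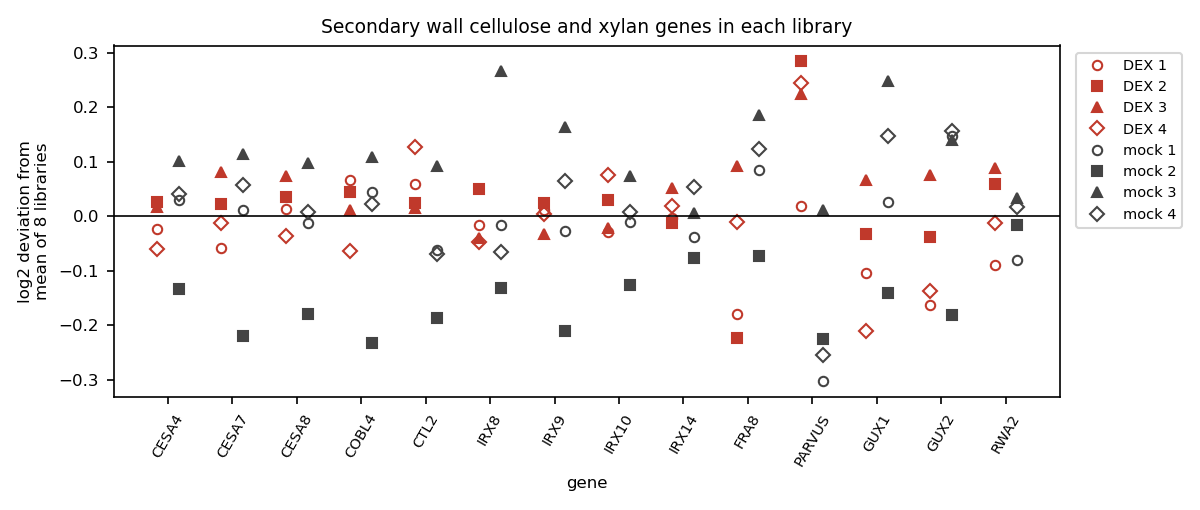
Deviation of each library from the mean of the 8 libraries, on a log2 scale of normalised counts with 1 added, for the 5 cellulose and 9 xylan genes. DEX libraries are red and stand left of the mock libraries in grey, and symbols mark the library number. Mock 2 (filled grey squares) is the lowest mock library for 12 of the 14 genes and mock 3 (filled grey triangles) the highest for 12. Only *PARVUS* shows DEX values wholly above mock values.

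Most regulators had lower values in DEX libraries. Of 13 tested regulators 10 were lower (76.9%, against 51.5% of all tested genes) and 3 higher, and the median log2 fold change was −0.13, against −0.01 over all tested genes. The test was passed by 1 in each direction (7.69%), close to the 10.4% of all tested genes that rose and the 8.3% that fell. The signs of *MYB83*, *MYB103* and *SND2*, all close to 0, turned under alternative settings. *MYB46* (AT5G12870) and *MYB83* (AT3G08500), the redundant MYB switches directly below the NAC proteins, were not among those that passed it. *MYB46* averaged 481 ± 25.6 normalised counts in DEX and 435 ± 46.4 in mock libraries (SD, n = 4 each), a log2 fold change of 0.15 ± 0.0794 (SE) with an adjusted p of 0.181, and *MYB83* had a log2 fold change of 0.02 ± 0.0993 (SE). *SND2* (AT4G28500), a NAC protein of fibres, had a log2 fold change of −0.00 ± 0.0779 (SE), and *MYB103* (AT1G63910), an activator linked to syringyl lignin, had one of −0.01 ± 0.112 (SE).

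*KNAT7* had 1474, 1557, 1527 and 1715 normalised counts in DEX libraries 1 to 4, against 1247, 1158, 1322 and 1212 in mock libraries 1 to 4. *KNAT7* (AT1G62990), a KNOX homeodomain protein that represses secondary wall formation in fibres, was the regulator with the highest log2 fold change, 0.34 ± 0.0566 (SE) (adjusted p = 0.000569). All of its DEX values were above all mock values, and leaving out any library left it between 0.30 and 0.38. Normalised counts of *MYB63* were 170.1, 189, 206 and 176 in DEX libraries 1 to 4, and 247, 244, 233 and 257 in mock libraries 1 to 4. *MYB63* (AT1G79180), an activator of lignin genes, fell by 0.40 on the log2 scale (SE 0.0878, adjusted p = 0.0039), with no overlap between the groups. For *SND3*, the DEX libraries held 198, 203, 206 and 203 normalised counts and the mock libraries 289, 213, 298 and 266. *SND3* (AT1G28470), a NAC protein downstream of SND1, had the lowest log2 fold change of all members, −0.41 ± 0.105 (SE), and stayed just outside the threshold with an adjusted p of 0.0105. In mock library 2 *SND3* was close to the DEX values, and without that library it passed the test at an adjusted p of 0.00111.

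*MYB52* (AT1G17950) and *MYB54* (AT1G73410), close relatives of each other, had log2 fold changes of −0.39 ± 0.142 (SE) and −0.32 ± 0.107 (SE) and adjusted p-values of 0.0555 and 0.0362. The DEX values of *MYB54* were all below its mock values, as were those of *MYB85* (AT4G22680), a lignin-linked factor whose log2 fold change was −0.20 ± 0.111 (SE). *MYB20* (AT1G66230), *MYB42* (AT4G12350) and *MYB43* (AT5G16600), which act together in lignin formation, had log2 fold changes of −0.13 ± 0.100 (SE), −0.18 ± 0.184 (SE) and −0.12 ± 0.106 (SE). None of these 6 genes passed the test. *MYB58* (AT1G16490), the nearest partner of *MYB63* in lignin activation, was listed at 0 in all 8 libraries. In the RefSeq annotation of TAIR10.1 its exons (chromosome 1, 5629655 to 5631088, minus strand) lie wholly within those of AT1G16489 on the other strand. Reads that fell on more than 1 gene were left out of the deposited counts, and AT1G16489 itself had 0 to 6 counts per library.

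Most lignin enzymes had slightly higher values in DEX libraries. Of 15 enzymes 13 had a higher fitted value (86.7%, against 48.5% of all tested genes) and 2 a lower one, although *HCT* and *CCR1* turned negative if library totals alone set the scale. The test was passed by 5 that rose (33.3%, against 10.4% of all tested genes) and 1 that fell (6.67%, against 8.3%), and the median log2 fold change was 0.13, against −0.01 over all tested genes. Their summed level was 2577, 2719, 2671 and 2635 TPM in DEX libraries 1 to 4, against 2332, 2307, 2546 and 2519 TPM in mock libraries 1 to 4. The lowest DEX sum was above the highest mock sum. Abundant genes weigh most in this sum. *C4H* (559 TPM in DEX libraries), *CCoAOMT1* (525 TPM) and *COMT1* (399 TPM) were its largest terms, and *C4H* and *COMT1* did not pass the test. The 5 that rose were *PAL2*, *C3H1*, *CCoAOMT1*, *CAD4* and *CAD5*, which span the pathway from its first step to its last. With 1 library left out, *PAL2* and *CAD5* passed in all 8 fits, *C3H1* in 4, *CCoAOMT1* in 3 and *CAD4* in none. The 33.3% is thus the share with all 8 libraries kept.

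The entry enzyme phenylalanine ammonia-lyase was represented by 3 genes, and they did not move in 1 direction. *PAL2* reached 10862, 11620.5, 11181 and 10970.1 normalised counts in the DEX libraries, against 7541, 8489, 9441 and 8759 in the mock libraries. *PAL2* (AT3G53260) rose with no overlap between the groups, and its log2 fold change of 0.38 ± 0.0598 (SE) was the highest of all members (adjusted p = 0.000363). *PAL4* had 446, 488, 577 and 498 normalised counts in DEX libraries 1 to 4, against 647, 613, 621 and 612 in mock libraries 1 to 4. *PAL4* (AT3G10340) fell by 0.31 on the log2 scale (SE 0.0735, adjusted p = 0.00614), the lowest value among the enzymes. Its call was kept only without DEX library 3 and lost in the other 7 fits. *PAL1* (AT2G37040), the most abundant of the 3 per length, averaged 13992 ± 489 normalised counts in DEX and 12788 ± 959.7 in mock libraries (SD, n = 4 each), a log2 fold change of 0.13 ± 0.0546 (SE) that did not pass the test (adjusted p = 0.089).

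The next steps of the general pathway differed less. *C4H* (AT2G30490), the cinnamate hydroxylase and the most abundant member per length with 559 TPM in DEX and 533 TPM in mock libraries, averaged 42985 ± 1673 normalised counts in DEX and 39608 ± 2196 in mock libraries (SD, n = 4 each), and its log2 fold change of 0.12 ± 0.0501 (SE) did not pass the test (adjusted p = 0.0927). The ligase genes *4CL1* (AT1G51680) and *4CL2* (AT3G21240) had log2 fold changes of 0.11 ± 0.0556 (SE) and 0.22 ± 0.0575 (SE). *4CL2* had all DEX values above all mock values but an adjusted p of 0.0106, just outside the threshold, and it passed the test without mock library 3 or DEX library 1. *HCT* (AT5G48930) and *CSE* (AT1G52760), which act on the shikimate esters, had log2 fold changes of 0.03 ± 0.0502 (SE) and 0.07 ± 0.0413 (SE). Normalised counts of *C3H1* were 7163, 7825, 7133 and 7410.1 in DEX libraries 1 to 4, and 6003, 5728, 6695 and 6439.6 in mock libraries 1 to 4. *C3H1* (AT2G40890), the hydroxylase that works between them, rose with a log2 fold change of 0.25 ± 0.0531 (SE) and an adjusted p of 0.00337. All DEX values were above all mock values, and the call was lost in 4 of the 8 fits that left out a library, among them those without mock library 1 and mock library 2.

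In the branch to the monolignols, methylation and the final reduction held most of the rises. For *CCoAOMT1*, the DEX libraries held 28776, 31961, 30099 and 29254 normalised counts and the mock libraries 22148, 23166, 27136 and 25979. *CCoAOMT1* (AT4G34050), the caffeoyl-CoA methyltransferase of guaiacyl units, rose by a log2 fold change of 0.29 ± 0.0641 (SE), at an adjusted p of 0.00438. *COMT1* (AT5G54160), the methyltransferase of syringyl units, averaged 22045 ± 1077 normalised counts in DEX and 19318 ± 1845 in mock libraries (SD, n = 4 each), with an adjusted p of 0.0391 for a log2 fold change of 0.19 ± 0.0641 (SE). Without mock library 3 *COMT1* passed the test with an adjusted p of 0.00395. *CAD5* reached 9083, 9277, 9562 and 10061 normalised counts in the DEX libraries, against 7889.9, 7509, 7526 and 7779 in the mock libraries. *CAD5* (AT4G34230), the cinnamyl alcohol dehydrogenase of the last step, had the smallest adjusted p of all members, 0.000139, at a log2 fold change of 0.31 ± 0.0425 (SE). *CAD4* had 2719, 2618, 2572 and 2779 normalised counts in DEX libraries 1 to 4, against 2376, 2470.0, 2205 and 2427 in mock libraries 1 to 4. *CAD4* (AT3G19450), its partner at that step, had a log2 fold change of 0.17 ± 0.0446 (SE) and an adjusted p of 0.009998, and lost the call in every fit that left out a library and with scaling by library totals. For *CAD5* the lowest DEX value was well clear of the highest mock value, while for *CAD4* the groups lay closer together. *CCR1* (AT1G15950), the cinnamoyl-CoA reductase of development, and *F5H1* (AT4G36220), the ferulate hydroxylase of syringyl units, had log2 fold changes of 0.02 ± 0.0786 (SE) and −0.02 ± 0.0608 (SE) with overlapping groups. Of the exon bases of *CCR1*, 77.2% are shared with neighbouring genes in RefSeq TAIR10.1, and reads on bases of more than 1 gene were not counted.

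**Figure D3:**
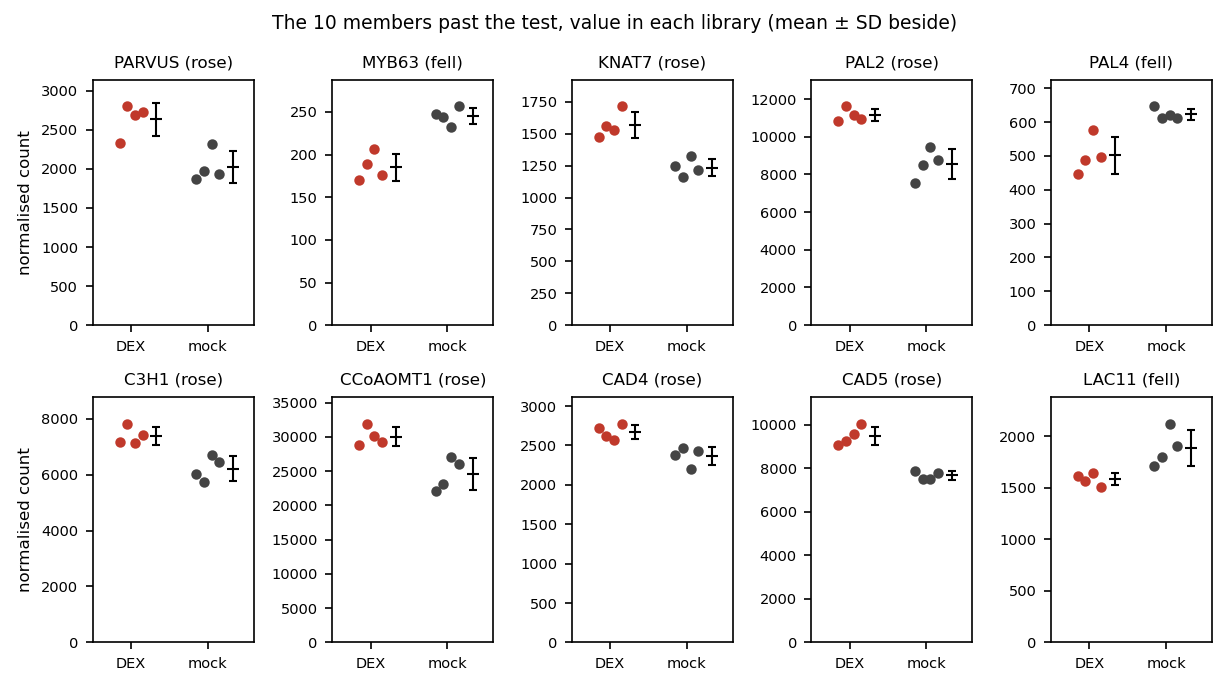
Normalised counts in each library of the 10 members that passed the test, with DEX libraries in red at the left and mock libraries in grey at the right of each panel, and the mean ± SD of the 4 libraries beside the points. The vertical axes start at 0. For all 10 genes the groups do not overlap, and all differences are small beside the level itself.

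Sequences upstream of the genes were read for matches to the AC elements, sites of MYB factors known from lignin promoters. Windows of 250 bases before the annotated gene start were taken from RefSeq TAIR10.1, whose nuclear chromosomes are those of TAIR10, and all 51 members were matched. The letters searched on both strands were ACCTACC (AC-I), ACCAACC (AC-II) and ACCTAAC (AC-III). A match was present in 6 of 15 lignin enzymes (40.0%), 2 of 3 laccases, 2 of 5 cell death genes, 1 of 9 xylan genes, 1 of 14 regulators and 0 of 5 cellulose genes, against 6.20% of 20376 tested protein-coding genes. With 5 further sites of MYB46 added (spelled ACCAAAT or ACCAAAC or ACCAACT or ACCTAAT or ACCTACT), 10 of the 15 lignin enzymes and 24 of the 51 members had a match, against 29.9% of the tested protein-coding genes. The letters ATAACAA, a site known for the related protein SMXL6, were found before 8 of the 51 members (15.7%), against 11.4% of those genes. AC elements stood before lignin enzymes that rose (*C3H1*, *CCoAOMT1* and *CAD5*) and before others that did not pass the test (*4CL2*, *HCT* and *CCR1*), while *CAD4* had no match to any of these 9 letter strings. A match is a description of the sequence only.

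The windows are shown for 3 enzymes that rose and carry an AC element, for the *PAL* pair that moved in opposite directions, for the laccase that fell, and for *CESA7*, which did not pass the test and has no match. They run 5′ to 3′ on the strand of the gene and end at the base before its start, with the matches to the 9 letter strings in capitals.
CCoAOMT1 (chr4:16310159-16310408, plus strand): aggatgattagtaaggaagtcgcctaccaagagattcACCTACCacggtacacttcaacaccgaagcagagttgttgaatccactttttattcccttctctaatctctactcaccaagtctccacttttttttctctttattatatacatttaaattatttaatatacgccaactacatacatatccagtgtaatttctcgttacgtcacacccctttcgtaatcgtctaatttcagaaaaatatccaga
C3H1 (chr2:17060653-17060902, minus strand): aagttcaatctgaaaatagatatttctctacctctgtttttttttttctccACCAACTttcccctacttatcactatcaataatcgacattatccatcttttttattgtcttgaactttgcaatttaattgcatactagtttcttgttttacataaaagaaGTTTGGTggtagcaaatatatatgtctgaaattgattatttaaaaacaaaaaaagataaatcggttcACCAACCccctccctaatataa
CAD5 (chr4:16388941-16389190, minus strand): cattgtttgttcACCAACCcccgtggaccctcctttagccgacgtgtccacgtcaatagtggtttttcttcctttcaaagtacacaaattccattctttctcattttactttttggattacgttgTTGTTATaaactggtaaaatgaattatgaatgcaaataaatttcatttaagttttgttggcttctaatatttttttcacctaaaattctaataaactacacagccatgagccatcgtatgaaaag
PAL2 (chr3:19747115-19747364, minus strand): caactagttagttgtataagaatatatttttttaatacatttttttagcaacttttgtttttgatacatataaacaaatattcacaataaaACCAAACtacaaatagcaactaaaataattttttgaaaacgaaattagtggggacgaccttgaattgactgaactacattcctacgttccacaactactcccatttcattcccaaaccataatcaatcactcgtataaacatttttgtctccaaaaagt
PAL4 (chr3:3203738-3203987, plus strand): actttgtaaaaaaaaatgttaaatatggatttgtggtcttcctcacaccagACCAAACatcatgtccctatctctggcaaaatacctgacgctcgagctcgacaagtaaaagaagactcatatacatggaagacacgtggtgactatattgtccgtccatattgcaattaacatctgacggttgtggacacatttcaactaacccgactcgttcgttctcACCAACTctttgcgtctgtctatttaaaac
LAC11 (chr5:779425-779674, minus strand): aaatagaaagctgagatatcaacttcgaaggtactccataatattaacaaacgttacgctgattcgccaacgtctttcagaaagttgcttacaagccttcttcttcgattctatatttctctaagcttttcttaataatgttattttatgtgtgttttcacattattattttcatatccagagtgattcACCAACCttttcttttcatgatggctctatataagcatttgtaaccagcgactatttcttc
CESA7 (chr5:5741501-5741750, minus strand): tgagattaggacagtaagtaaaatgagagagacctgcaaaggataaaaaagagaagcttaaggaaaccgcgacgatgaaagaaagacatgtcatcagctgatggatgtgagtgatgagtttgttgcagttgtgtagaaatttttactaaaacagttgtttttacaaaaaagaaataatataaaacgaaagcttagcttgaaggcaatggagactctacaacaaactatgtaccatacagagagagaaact

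In these windows *CCoAOMT1* has an AC-I element, *C3H1* and *CAD5* have an AC-II element each, *C3H1* also has ACCAACT and, on the other strand, ACCAAAC, and *CAD5* has ATAACAA on the other strand. *PAL2*, which rose, and *PAL4*, which fell, both have ACCAAAC, and *PAL4* also has ACCAACT. None of these matches overlaps another, and no window shown overlaps another annotated gene. *LAC11*, which fell, has the same AC-II letters as *C3H1* and *CAD5*, which rose. Matches were thus found before genes of both directions.

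Of the 3 laccases, which oxidise monolignols in the wall, 2 were tested and 1 fell, against 8.3% of all tested genes. Normalised counts of *LAC11* were 1616, 1569.9, 1648 and 1509 in DEX libraries 1 to 4, and 1715, 1795, 2123 and 1906 in mock libraries 1 to 4. *LAC11* (AT5G03260) fell by 0.25 on the log2 scale (SE 0.0622, adjusted p = 0.0085) with no overlap, and the call was kept only without mock library 1. For *LAC4*, the DEX libraries held 3783, 3754, 3918 and 3683 normalised counts and the mock libraries 3833, 3555, 4509 and 3771. *LAC4* (AT2G38080), the more abundant per length of the pair with counts, had a log2 fold change of −0.05 ± 0.0631 (SE), with the DEX values inside the range of the mock values. *LAC17* (AT5G60020) was listed at 0 in all 8 libraries. In RefSeq TAIR10.1 (chromosome 5, 24167996 to 24170462, plus strand) 25.2% of its exon bases and 97.4% of its whole length are shared with the neighbours AT5G60022 and AT5G00685. These neighbours had 16 to 37 and 19 to 82 counts per library. Listed at 0 throughout, *LAC17* and *MYB58* had no level or fold change to report. Whether the overlap with neighbours led to these zeros was not tested.

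The genes of vessel cell death passed the test in neither direction (0 of 5), against 10.4% of all tested genes that rose and 8.3% that fell. Their median log2 fold change was −0.05. The xylem cysteine proteases were the most abundant of them per length, and both had higher means in DEX libraries. *XCP2* reached 11818, 11018, 12022 and 11359 normalised counts in the DEX libraries, against 10111, 9598, 11161 and 10489 in the mock libraries. *XCP2* (AT1G20850) had the highest log2 fold change of the class, 0.16 ± 0.0508 (SE) (adjusted p = 0.0299), and the groups overlapped. *XCP1* (AT4G35350) averaged 6383 ± 266 normalised counts in DEX and 5950.5 ± 234 in mock libraries (SD, n = 4 each), a log2 fold change of 0.10 ± 0.0441 (SE). *RNS3* had 1609, 1499, 1838 and 1629 normalised counts in DEX libraries 1 to 4, against 1661, 1847, 2004 and 1875 in mock libraries 1 to 4. *RNS3* (AT1G26820), a ribonuclease, had the lowest log2 fold change of the class, −0.17 ± 0.0687 (SE) (adjusted p = 0.0821). *MC9* (AT5G04200), the metacaspase that clears the contents of dead vessels, and *BFN1* (AT1G11190), a bifunctional nuclease, had log2 fold changes of −0.10 ± 0.0705 (SE) and −0.05 ± 0.0733 (SE). DEX library 2 was the lowest DEX library for all 5 genes, against 25.0% of all tested genes. Without mock library 3, *XCP2* alone of the 5 passed the test, at an adjusted p of 0.00783.

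**Figure D4:**
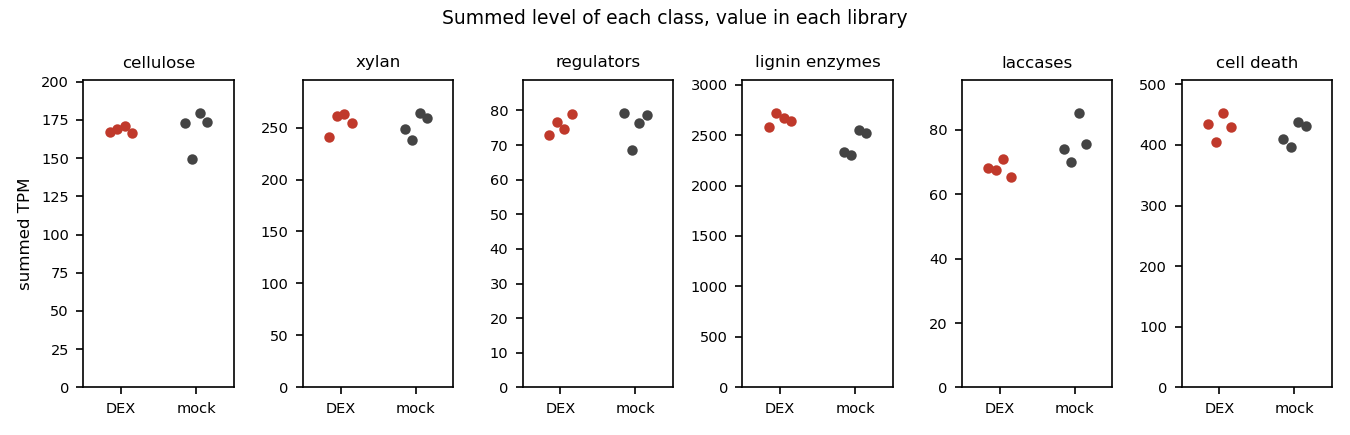
Summed level of each of the 6 classes, in TPM computed from the counts and RefSeq exon lengths, in each DEX library (red, left) and mock library (grey, right). The axes start at 0 and differ between panels. The sums do not overlap for the lignin enzymes, where DEX is higher, and overlap for cellulose, xylan, regulators, laccases and cell death genes.

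Some related genes outside the set held larger differences than any member. The related lists here and below were chosen with earlier results of these data known, so their shares beside those of all tested genes test nothing. Of 14 further genes of the lignin pathway and its oxidases, 2 rose and 1 fell, against 10.4% and 8.3% of all tested genes. The rises were those of *CCR2* and of *4CL5* (AT3G21230), named here after its values were seen, which had a log2 fold change of 0.57 ± 0.131 (SE) and overlapping groups. Normalised counts of *CCR2* were 1534, 1739, 2412 and 1820.4 in DEX libraries 1 to 4, and 736, 769, 887 and 835 in mock libraries 1 to 4. *CCR2* (AT1G80820), the cinnamoyl-CoA reductase associated with defence, was induced with a log2 fold change of 1.22 ± 0.135 (SE) and an adjusted p of 0.000187. Its developmental counterpart *CCR1*, with 77.2% of its exon bases shared with neighbouring genes in RefSeq TAIR10.1, had 0.02 ± 0.0786 (SE). For *PRX25*, the DEX libraries held 65.5, 60.7, 64.2 and 64.1 normalised counts and the mock libraries 94.8, 123, 127 and 146. *PRX25* (AT2G41480), a wall peroxidase, was suppressed with a log2 fold change of −0.94 ± 0.146 (SE) and an adjusted p of 0.00037. In all 14 alternative analyses both genes kept their calls.

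Of 10 further regulators, listed with earlier results of these data known, 3 rose and 2 fell, against 10.4% and 8.3% of all tested genes. These counts describe the list only. The 3 that rose were MYB repressors of phenylpropanoid genes, all past 1.5-fold. *MYB7* reached 7599, 8104, 7075 and 7689.7 normalised counts in the DEX libraries, against 3366, 2881, 3754 and 4286 in the mock libraries. *MYB4* had 4354, 5011, 4283 and 4443 normalised counts in DEX libraries 1 to 4, against 2732, 2325, 2885 and 3090.3 in mock libraries 1 to 4. Normalised counts of *MYB32* were 1636, 1917, 1639.7 and 1697 in DEX libraries 1 to 4, and 861, 842, 977 and 1073 in mock libraries 1 to 4. In each of the 3 genes the lowest DEX value was above the highest mock value. The log2 fold change was 1.09 ± 0.107 (SE) for *MYB7* (AT2G16720), 0.71 ± 0.0818 (SE) for *MYB4* (AT4G38620), which represses *C4H*, and 0.88 ± 0.0792 (SE) for *MYB32* (AT4G34990), with adjusted p-values of 6.38e-05, 8.53e-05 and 7.35e-06. All 3 kept their calls in the 14 alternatives. The 2 that fell, named after their values were seen, were *KNAT3* (AT5G25220) and *BLH6* (AT4G34610), a KNOX relative and a BELL partner of *KNAT7*, with log2 fold changes of −0.38 ± 0.0422 (SE) and −0.28 ± 0.0532 (SE).

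Among 10 xylem NAC regulators, of which 9 were tested, 2 rose and 1 fell, against 10.4% and 8.3% of all tested genes. For *VND1*, the DEX libraries held 248, 239, 306 and 354 normalised counts and the mock libraries 193, 132, 198 and 205. *VND1* (AT2G18060) was induced with a log2 fold change of 0.64 ± 0.155 (SE) and an adjusted p of 0.00818, a call kept in 7 of the 14 alternatives. The other rise, named after its values were seen, was that of *VND5* (AT1G62700), with a log2 fold change of 0.35 ± 0.0875 (SE). Its groups overlapped, its adjusted p was 0.00885, and the alternatives were not run for it. *VND6* reached 299.8, 324, 336 and 332 normalised counts in the DEX libraries, against 445, 438, 463 and 409.8 in the mock libraries. *VND6* (AT5G62380), which drives metaxylem vessel fate, fell by 0.45 on the log2 scale (SE 0.0689, adjusted p = 0.000336) without overlap, and kept its call in all 14. *VND7* (AT1G71930), which drives protoxylem vessel fate, averaged 274 ± 28.6 normalised counts in DEX and 245 ± 29.2 in mock libraries (SD, n = 4 each), with a log2 fold change of 0.17 ± 0.105 (SE) and an adjusted p of 0.253. The lowest log2 fold change of the list was that of *NST2* (AT3G61910), a NAC regulator of anther secondary walls named here after its values were seen. *NST2* had 25.2, 26, 18 and 23.1 normalised counts in DEX libraries 1 to 4, against 44.2, 46, 42.9 and 49.4 in mock libraries 1 to 4. All DEX values were below all mock values, with a log2 fold change of −0.97 ± 0.178 (SE) and an adjusted p of 0.00118, and *NST2* was not called because its mean of 34.4 normalised counts lay under the minimum of 50. *MYB46* and *MYB83*, which VND proteins activate, had the values given above.

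The cellulose genes of the primary wall give a comparison to the secondary wall synthase. Of 7 such genes 2 rose and none fell, against 10.4% and 8.3% of all tested genes, and the median log2 fold change was −0.03. Normalised counts of *CESA5* were 14335, 15426, 16188 and 14502 in DEX libraries 1 to 4, and 12758, 12166, 11472 and 12713 in mock libraries 1 to 4. *CESA5* (AT5G09870) had a log2 fold change of 0.30 ± 0.0513 (SE), at an adjusted p of 0.000715, and *CESA6* (AT5G64740), a related subunit, had one of 0.18 ± 0.0425 (SE) (adjusted p = 0.00698). The groups did not overlap in either gene, and *CESA6* lost its call in 7 of the 14 alternatives. *CESA1* (AT4G32410), *CESA2* (AT4G39350) and *CESA3* (AT5G05170) had log2 fold changes of −0.03 ± 0.0502 (SE), 0.11 ± 0.0484 (SE) and −0.07 ± 0.0437 (SE). *COB* (AT5G60920) and *CTL1* (AT1G05850), the primary wall relatives of *COBL4* and *CTL2*, had values of −0.05 ± 0.0497 (SE) and −0.05 ± 0.0562 (SE). Of 14 further xylan genes, 0 rose and 1 fell, against the same shares of all tested genes. The one that fell, named after its values were seen, was *F8H* (AT5G22940), the close homologue of *FRA8*, with a log2 fold change of −0.54 ± 0.0732 (SE) and no overlap.

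**Figure D5:**
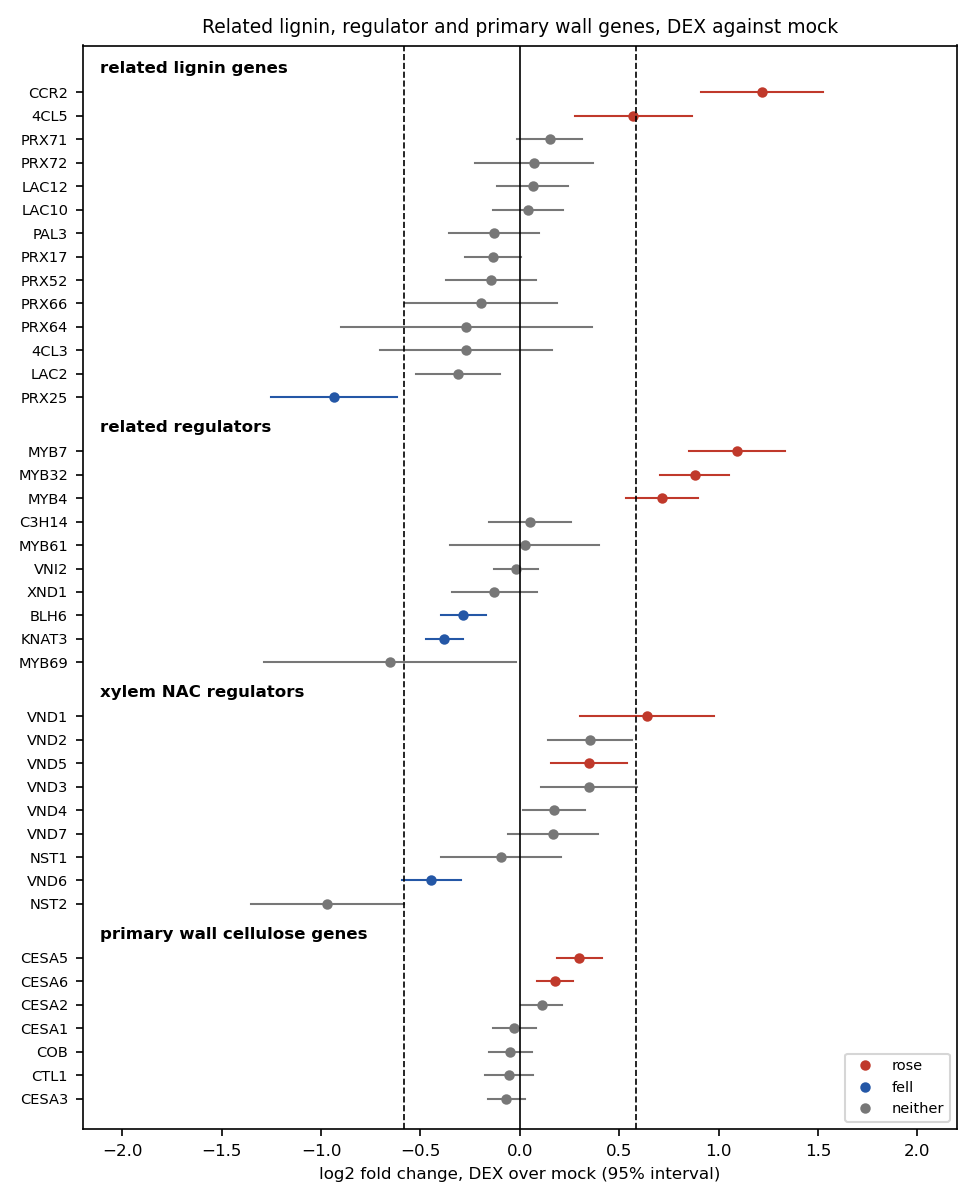
Log2 fold change of DEX over mock with its 95% interval for related lignin genes, related regulators, xylem NAC regulators and primary wall cellulose genes. Dashed lines mark a 1.5-fold change. Called points past it are *CCR2*, *MYB7*, *MYB32*, *MYB4* and *VND1* at the right and *PRX25* at the left.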

How the data were processed

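RNA of hypocotyls was profiled in 4 DEX and 4 mock libraries, grouped by the sample labels. The authors mapped the reads with STAR 2.7.8a to TAIR10 (versions from the submitters' processing notes), kept uniquely mapping reads, and counted them per gene with summarizeOverlaps (union mode, strand ignored). In that mode a read on more than 1 gene is dropped. The deposited raw counts were used, and the deposited table of normalised counts was not. All 8 columns were mapped, and 0 columns were left unmapped. The annotation behind the counts is not given in the sources used here.

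DEX was compared with mock over all genes kept by filterByExpr with edgeR 4.0.16 in R 4.3.3 (TMM normalisation, robust quasi-likelihood test, no replicate block, Benjamini-Hochberg adjustment). A gene rose or fell at an adjusted p under 0.01 and a mean over 50 normalised counts, and was induced or suppressed when it also passed 1.5-fold (0.585 on the log2 scale), the thresholds of the study's methods. Each standard error is the size of the log2 fold change over the square root of F, and normalised counts are TMM-scaled counts at the mean effective library size. TPM used RefSeq TAIR10.1 exon lengths and library totals, without the TMM factors. The biological coefficient of variation was 0.0662, and counting error (1 over the square root of the mean count) was larger than that for 7 of the 49 tested members, *MYB42* among them. Chi-square values per gene of 6.25 to 25.2 between libraries of a group exceeded sampling noise, so no library was a copy of another. Exons of members were compared with all other genes by blastn 2.17.0, and 0 members had a match of at least 95% identity over 100 bases or more (highest 88.2%).

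The members and gene lists were chosen with earlier results of these data known. The naming rule covered all 51 members, with values per library for the highest and lowest fold change of each class and for induced or suppressed genes, and of the related lists the induced or suppressed genes, *VND6*, *VND7* and the primary wall cellulose genes. Values per library were also printed for the other members that passed the test and for *CESA5*, *VND6*, *NST2* and *SMXL7*. The edgeR and DESeq2 1.42.0 tests were tested on simulated data. Alternatives were DESeq2, other scalings and filters, other thresholds, a replicate block and leaving out each library. Their use on part of the related genes was added after seeing the data.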

Additional observations from a re-analysis of the deposited data

Results flagged for a closer look

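Within a group of 4 libraries, 5 of 98 groups of values (49 members in 2 treatments) held a library that stood apart from the other 3, with a gap to its nearest neighbour that exceeded the critical share of the range of the group in Dixon's test. Chance gives about 1 in 20 such groups. *GUX2* had 323.5 normalised counts in mock library 2, against 403.9 to 408.6 in the other mock libraries. *MYB54* had 129.0 in mock library 4, against 115.5 to 116.8 in the other mock libraries, all above its DEX values. *MYB42* had 32.66 in DEX library 3, against 25.04 to 25.66 in the other DEX libraries. *PAL1* had 13270 in DEX library 4 and between 14140 and 14310 in the other DEX libraries. *BFN1* had 555.7 in DEX library 2, against 678.0 to 679.9 in the other DEX libraries, and DEX library 2 was also the lowest DEX library of the other cell death genes.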

How the results depend on the processing

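No member was induced or suppressed under any alternative that was run. The count of members that rose was 6 to 10 with other tools, scalings, filters and thresholds, and 3 to 9 when 1 library was left out. The count that fell was 2 to 5 and, with 1 library left out, 0 to 2, and it was 5 at an adjusted p under 0.05. A replicate block gave 8 members that rose, with *4CL2* added, and 3 that fell. Libraries with the same number did not deviate together (correlations of −0.00862 to 0.0706), so the numbers were not taken to pair samples. *CAD4* lost its call when libraries were scaled by total counts (adjusted p = 0.0524), and *LAC11* with a CPM filter (adjusted p = 0.0112). Signs turned only in log2 fold changes that were close to 0 and did not pass the test. Scaled by total counts, the values were −0.034 for *CESA7*, −0.0071 for *CESA8*, −0.024 for *COBL4*, −0.021 for *IRX10*, −0.019 for *IRX14*, −0.021 for *RWA2*, −0.027 for *MYB83*, −0.016 for *HCT* and −0.025 for *CCR1*. *SND2* had 0.0015 with DESeq2, 0.0022 with its size factors, 0.0038 with a CPM filter and 0.0048 with a replicate block, with which *IRX9* had 0.0026. With 1 library left out, the values spanned −0.069 to 0.0084 for *CESA4*, −0.053 to 0.054 for *CESA7*, −0.011 to 0.080 for *CESA8*, −0.045 to 0.064 for *COBL4*, −0.086 to 0.056 for *IRX8*, −0.068 to 0.055 for *IRX9*, −0.011 to 0.056 for *IRX10*, −0.0018 to 0.059 for *RWA2*, −0.021 to 0.061 for *MYB83*, −0.089 to 0.032 for *MYB103*, −0.058 to 0.069 for *SND2*, −0.030 to 0.097 for *CCR1*, −0.056 to 0.019 for *F5H1*, −0.095 to 0.024 for *LAC4*, −0.078 to 0.018 for *BFN1* and −0.052 to 0.013 for *CESA1*. The cause of these turns was not tested. *MYB58* and *LAC17*, with no counts, had no value under any setting.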
